A study of Mus musculus with 15 samples.

Results

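The MAPK feedback genes described here are 10 genes of the mouse: the MAP kinase phosphatase genes Dusp1, Dusp2, Dusp4, Dusp5 and Dusp6, the inhibitor genes Spry1, Spry2, Spred1 and Spred2, and the transcription factor gene Egr1. They were taken by symbol from the 53379 genes of the expression table. All 10 passed the filter on low values (3 or more libraries with 10 or more normalized reads), as did 12673 genes in all, although Dusp4 passed only through libraries of clone C2. RNA-seq had been performed on fetal liver cells transformed with the MLL-ENL fusion oncogene, in 15 libraries that fall into 5 groups of 3. In clone C1, the groups are WTFL cells, which are labelled wild-type and carry floxed Cebpa and Cebpb alleles, dKO cells, in which both genes had been deleted with TAT-Cre and which express GFP, and dKO-LAP* cells, which are dKO cells with GFP and the LAP* isoform of rat C/EBPβ. In clone C2, from a different mouse, the groups are WTFL and dKO cells, so the LAP* comparisons rest on C1 alone; columns of the table named for dKO-LAP* cells of C2 matched no sample and are not analysed here. All cells were kept in IMDM with 10% FCS and 10 ng/ml murine IL-3. Each dKO line is 1 subclone that survived the deletion, so loss of the genes, selection of that subclone and the GFP vector cannot be told apart. The 3 libraries of a line came from RNA taken at different times, and p-values measure the spread between these extractions.

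The IL-3 receptor and other cytokine receptors signal through RAS, RAF and MEK to ERK, a MAP kinase that drives proliferation. Active ERK induces the transcription of its own inhibitors, which closes a negative feedback loop. Dual-specificity phosphatases remove the activating phosphates from MAP kinases, whereas Sprouty and Spred proteins restrain the pathway at RAS and RAF, and the mRNAs of these genes are widely read as a measure of ERK output. Egr1 is an immediate early gene, induced within minutes by ERK through serum response factor and its ETS partners, and it promotes macrophage differentiation in myeloid cells.

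Reads on genes numbered 9212237 to 13613500 per library (median 11885279). Values are normalized reads, that is, reads divided by 1 size factor per library, and a gene was at the floor in a library with 3 reads or fewer. Cebpa and Cebpb were at 0 reads in all 6 dKO libraries, and in the dKO-LAP* libraries Cebpb ranged from 2538 to 4216 normalized reads. Of 7 markers of hepatoblasts, stroma and endothelium, Alb, Ttr and Cdh5 were at 0 in all libraries, but Afp, a fetal liver gene, had 31.9 ± 4.57 normalized reads in C1 WTFL and 8.49 ± 1.78 in C1 dKO cells, and 130 ± 30.8 and 78.7 ± 5.43 in C2 (SD, n = 3), and was called lower in dKO cells of both clones (adjusted p = 3.9e-05 and 0.042, limma). The summed level of 6 myeloid progenitor markers was 25059 to 28822 in C1 WTFL, 74192 to 91679 in C1 dKO, 73899 to 87242 in C1 dKO-LAP*, 13730 to 16257 in C2 WTFL and 35048 to 43947 in C2 dKO cells, and none of them was at 0. Most of the rise was that of Mpo, with means of 14174 and 69702 in WTFL and dKO cells of C1 and 2798 and 22686 in C2. In C1, 2 of the 6 had negative log2 fold changes, and Ptprc went from 5090 to 4066 and Spi1 from 3524 to 3426 normalized reads. In C2, 0 were negative. For 7 mast cell and basophil markers, the sums were 73.4 to 106, 1710 to 1986, 407 to 494, 170 to 180 and 890 to 1331 in the same order of groups. Fcer1a and Prss34 were at 0 in all of these groups but C1 dKO. In C2, Ms4a2 of this list fell from 61.8 ± 12.3 to 8.1 ± 3.98 (SD, n = 3; adjusted p = 5.9e-06, limma) while Cpa3 and Gata2 rose. The summed level of 8 monocyte and macrophage markers was 7978 to 11722 in C1 WTFL, 3495 to 4765 in C1 dKO, 3322 to 4713 in C1 dKO-LAP*, 3099 to 4905 in C2 WTFL and 1652 to 2639 in C2 dKO cells. Its members did not move together in C2, where Ccr2 went from 3140 ± 680 to 397 ± 108 and Adgre1 from 293 ± 112 to 1421 ± 377 normalized reads (SD, n = 3; adjusted p = 2.6e-06 and 1.1e-06, limma). Of this list, Ms4a7 was at 0 in C2 WTFL and Ly86 in C2 dKO cells. The summed level of 7 eosinophil markers was 98.8 to 123 in C1 WTFL, 8393 to 15795 in C1 dKO, 1038 to 2054 in C1 dKO-LAP*, 13.6 to 21.1 in C2 WTFL and 272 to 380 in C2 dKO cells. Prg2, Prg3, Epx, Ear1 and Il5ra were at 0 in C1 WTFL cells, Ear1 and Il5ra also in C2 WTFL cells, and Ccr3 in both groups of C2. The sum of 7 neutrophil markers was 20696 to 27462 in C1 WTFL, 77261 to 98208 in C1 dKO and 32530 to 37363 in C1 dKO-LAP* cells. That of C2 WTFL (44487 to 78209) overlapped with that of C2 dKO cells (49355 to 76483), where Ly6g was called lower and Ltf and Mmp8 were called higher. Retnlg, with means of 45.5 and 4.5 in these groups, is not counted, because it passed the filter only with the C2 WTFL libraries, where it is high. The part of these shifts in the results on the feedback genes was not tested, and in bulk RNA fewer cells of a type and less RNA per cell cannot be told apart.

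Promoter sequence was examined for 8 of the 10 genes, all but Dusp4 and Egr1 (RefSeq, GRCm38.p6, the 250 bases before each start). Of these, 3 promoters are shown because Dusp6 changed in both clones and the other 2 carry a motif of a factor that responds to signalling. Each is given 5′ to 3′ on the strand of the gene, cut before the next exon base downstream in GENCODE vM21 (47 bases left out for Dusp1 and 36 for Dusp5). For Dusp1, this is the promoter of the short transcripts, and it lies inside the span of longer GENCODE transcripts that start further upstream. Capitals mark a cyclic AMP response element (TGACGTCA) in Dusp1 and 2 adjacent CArG boxes, the binding sites of serum response factor, in Dusp5.
Dusp6, chr10:99262981-99263230, plus strand: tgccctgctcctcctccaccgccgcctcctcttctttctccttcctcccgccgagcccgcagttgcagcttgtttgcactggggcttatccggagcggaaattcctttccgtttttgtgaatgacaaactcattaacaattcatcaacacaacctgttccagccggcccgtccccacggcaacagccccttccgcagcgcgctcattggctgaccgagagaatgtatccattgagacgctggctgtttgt
Dusp5, chr19:53528895-53529108, plus strand: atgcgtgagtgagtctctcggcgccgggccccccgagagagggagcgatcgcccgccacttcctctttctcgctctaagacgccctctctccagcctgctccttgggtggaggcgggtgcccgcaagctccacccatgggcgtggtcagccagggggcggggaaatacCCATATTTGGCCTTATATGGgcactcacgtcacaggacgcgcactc
Dusp1, chr17:26508520-26508722, minus strand: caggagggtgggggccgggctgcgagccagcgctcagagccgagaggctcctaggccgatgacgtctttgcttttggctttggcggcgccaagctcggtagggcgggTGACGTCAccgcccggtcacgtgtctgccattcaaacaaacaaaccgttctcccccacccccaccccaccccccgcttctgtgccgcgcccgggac
Both strands of the 250 bases were searched, and none of the matches overlapped. The cyclic AMP response element was in 1.55% and the CArG box in 1.47% of the 32851 promoters of the same length. The C/EBP core TTGCNNAA, an AP-1 site (TGANTCA) and an ETS site (CCGGAAGT) were found in none of the 8 promoters and in 9.56%, 6.75% and 2.88% of all promoters. A match is a description of these letters and not of binding, and no match is a statement on these windows alone. The 8 promoters held 56% to 70.8% G and C, against a median of 52.4% over all promoters.

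Dusp6 mRNA was lower in dKO than in WTFL cells of both clones, and no other of the 10 genes was called lower in both. In C1, 5 of the 10 genes were lower in dKO than in WTFL cells (Dusp5, Dusp6, Spry2, Spred1 and Spred2) and 0 were higher, against 19.9% called lower and 17.1% called higher among the genes tested (limma, Benjamini-Hochberg adjusted p under 0.05). In C2, 3 genes were lower (Dusp6, Spry1 and Egr1) and 1 was higher (Dusp2), against 20.1% and 17.4% of the genes tested. The median log2 fold change was -0.81 in C1 and -0.16 in C2 over the 9 genes without Dusp4, which was at the floor in C1 WTFL and dKO cells, and -0.015 and -0.027 over all genes tested. The difference of the dKO effect between the clones was itself called for 4 genes. It was positive, that is, the loss was smaller in C2, for Dusp5, Spry2 and Spred1, and negative for Egr1, against 15.1% of genes called positive and 14.3% called negative. The calls for Dusp5 and Spry2 held in every fit, whereas that for Egr1 failed under 7 of 8 alternatives, and those for Egr1 and Spred1 each failed in 9 of 12 fits with 1 library left out.

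**Figure D1:**
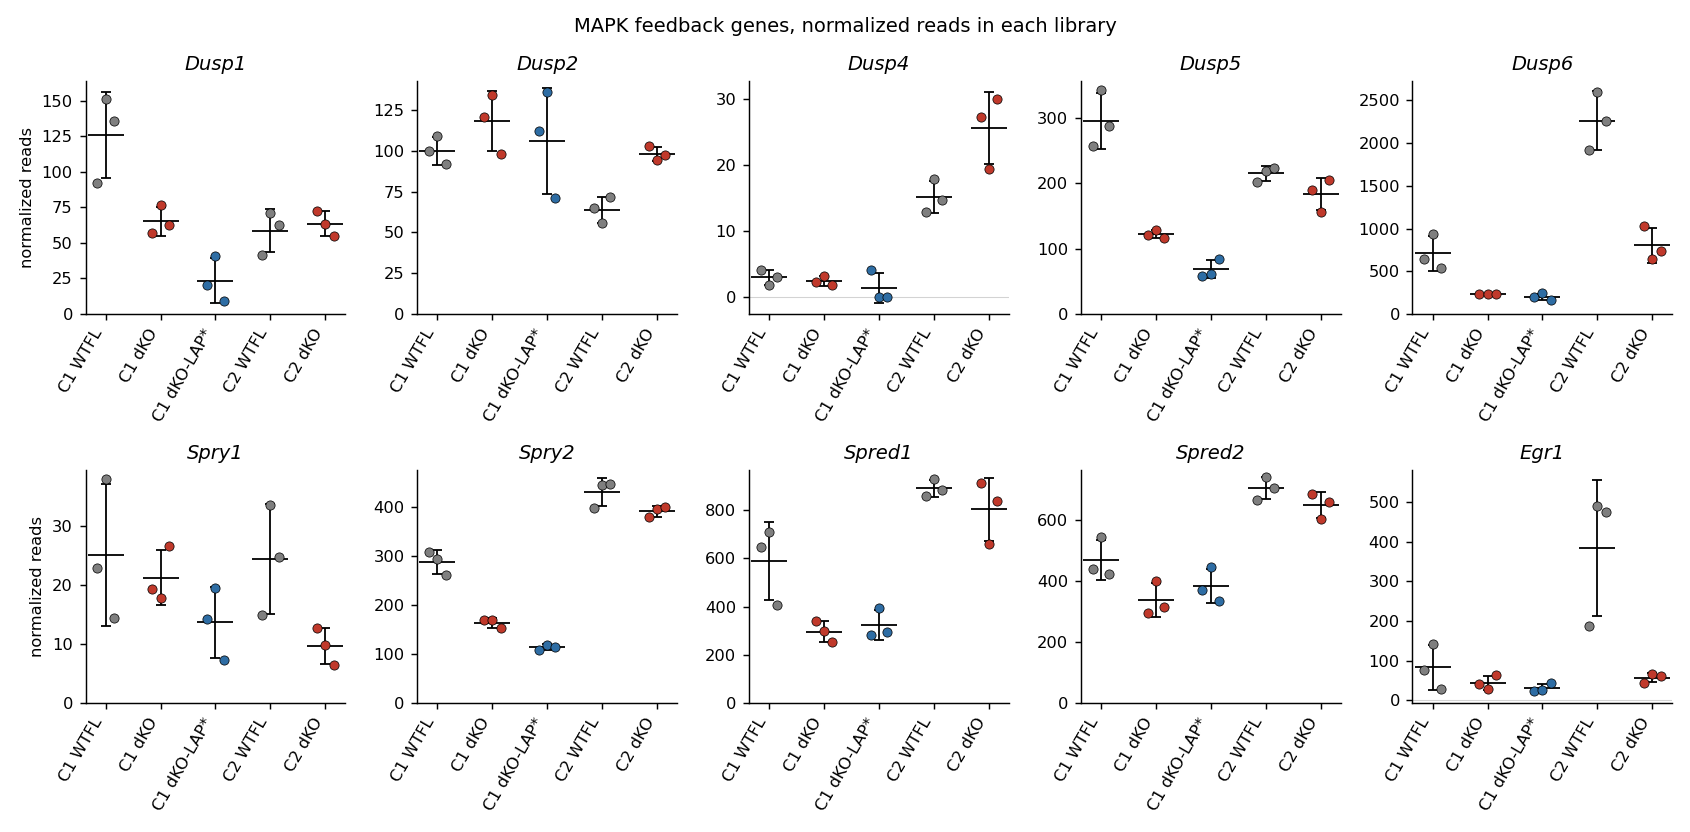
Normalized reads of the 10 MAPK feedback genes (vertical axes, linear, a scale of its own for each gene) in the 15 libraries, by line. Points are libraries, and bars show the mean ± SD of 3 libraries. Dusp6 lies at 233 in C1 dKO and 803 in C2 dKO cells, each below the WTFL cells of the same clone, and Egr1 stands at 384 in C2 WTFL cells against 31.6 to 83.5 in the other groups.

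Dusp6 encodes the cytoplasmic phosphatase that is specific for ERK, and lies on the plus strand at chr10:99263231-99267489 (mm10, GENCODE vM21). Its level was 650, 942 and 535 normalized reads in the WTFL libraries of C1 and 239, 230 and 231 in the dKO libraries. In C2, WTFL libraries had 1919, 2605 and 2264 and dKO libraries 1030, 641 and 739. All dKO libraries lay below all WTFL libraries of their clone, although C2 dKO cells (803 ± 203, SD, n = 3) overlapped with C1 WTFL cells (709 ± 210, SD, n = 3). The log2 fold change was -1.56 ± 0.20 (SE; adjusted p = 1.3e-05, limma) in C1 and -1.51 ± 0.20 (adjusted p = 2.1e-05, limma) in C2, so that 32.9% and 35.5% of the WTFL level was left. The difference between these effects was 0.05 (95% interval -0.54 to 0.64, adjusted p = 0.92, limma). Both calls held under all 8 alternatives and without any 1 library.

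Dusp5 (chr19:53529109-53542431, plus strand), a nuclear phosphatase that binds and anchors ERK, was lower with the deletion in C1. WTFL libraries of C1 had 257, 342 and 287 normalized reads and dKO libraries 121, 129 and 116. In C2, the WTFL libraries had 202, 219 and 223 and the dKO libraries 189, 156 and 205, so the groups were separate in C1 and overlapped in C2. The log2 fold change was -1.26 ± 0.15 (SE; adjusted p = 8e-06, limma) in C1 and -0.23 ± 0.15 (adjusted p = 0.25, limma) in C2. The difference of 1.03 ± 0.21 was called (adjusted p = 0.0019, limma), and it held under all 8 alternatives and without any 1 library. An antisense gene, AC137853.2, shares 547 exon bases with Dusp5, and its own reads are not listed in the table.

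Dusp1 (chr17:26505590-26562128, minus strand) encodes a nuclear phosphatase that acts on p38 and JNK as well as ERK. Its WTFL libraries had 92.3, 151 and 136 normalized reads in C1, and its dKO libraries 56.6, 76.6 and 62.7. The groups did not overlap, yet the log2 fold change of -0.92 ± 0.37 (SE) missed the threshold (adjusted p = 0.066, limma). It passed under 5 of 8 alternatives, among them edgeR (adjusted p = 0.026) and DESeq2 (adjusted p = 0.013), and the adjusted p ranged from 0.013 to 0.096. In C2, the WTFL libraries (41.8, 71.3 and 62.3) and dKO libraries (72.2, 63.2 and 54.7) overlapped, with a log2 fold change of 0.14 (95% interval -0.66 to 0.94). The difference between the clones, 1.06 on the log2 scale, did not pass (adjusted p = 0.15, limma), except in a fit of the compared groups alone (0.029). Dusp1 shares 11 exon bases with Ergic1 on the opposite strand, which reached 1609 normalized reads.

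Dusp2, an inducible nuclear phosphatase of hematopoietic cells (chr2:127336159-127338376, plus strand), was the only member called higher in dKO cells, and this in C2. Its WTFL libraries had 64.7, 55.6 and 71.5 normalized reads there and its dKO libraries 103, 94.3 and 97.6. The groups did not overlap, and the log2 fold change was 0.62 ± 0.20 (SE; adjusted p = 0.024, limma). The call was lost when C2 WTFL replicate 2 (adjusted p = 0.097) was left out, and likewise for replicates 1 (0.067) and 3 (0.058) of the C2 dKO cells. In C1, the WTFL libraries (100, 109 and 91.7) and dKO libraries (121, 134 and 98) overlapped, and the log2 fold change was 0.22 (95% interval -0.21 to 0.65). The difference between the clones, 0.40 on the log2 scale, did not pass (adjusted p = 0.33, limma).

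Dusp4 (chr8:34807297-34819894, plus strand), another nuclear phosphatase induced by ERK, was at the floor in the WTFL and dKO libraries of C1. The WTFL libraries of C1 held 3, 2 and 3 reads, the dKO libraries 2, 3 and 2, and the dKO-LAP* libraries 4, 0 and 0 reads, so neither a fold change nor a test is given within C1. In C2, it was detected in all libraries, with 12.9, 17.8 and 14.7 normalized reads in WTFL and 27.2, 19.4 and 30 in dKO cells. These groups did not overlap, but the log2 fold change of 0.71 ± 0.51 (SE) did not pass (adjusted p = 0.30, limma).

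Sprouty2, the product of Spry2 (chr14:105891947-105896819, minus strand), blocks signalling from receptors to RAS. Spry2 had 309, 293 and 261 normalized reads in the WTFL libraries and 169, 169 and 152 in the dKO libraries of C1. In C2 it had 397, 446 and 448 in WTFL and 380, 395 and 400 in dKO libraries. The groups were separate in C1 and overlapped in C2, and the spread within groups was small (coefficient of variation 2.69% to 8.54%). The log2 fold change was -0.81 ± 0.10 (SE; adjusted p = 7.8e-06, limma) in C1 and -0.13 ± 0.10 (adjusted p = 0.30, limma) in C2. The difference of 0.68 ± 0.14 was called (adjusted p = 0.0015, limma) and held under all 8 alternatives and without any 1 library.

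Spry1 (chr3:37639947-37644598, plus strand), which encodes a Sprouty protein of like function, was a low and variable gene. In C2, the WTFL libraries had 14.9, 33.5 and 24.7 normalized reads and the dKO libraries 12.6, 9.72 and 6.44. Every dKO library lay below every WTFL library, and the log2 fold change was -1.24 ± 0.41 (SE; adjusted p = 0.025, limma). The call was lost without the filter on low values (adjusted p = 0.055), without WTFL replicate 2 (0.12) or 3 (0.07) and without dKO replicate 2 (0.051) or 3 (0.11) of C2. In C1, the WTFL libraries (22.8, 37.9 and 14.3) spanned the dKO libraries (19.2, 17.8 and 26.5), and the log2 fold change was -0.14 (95% interval -1.01 to 0.72). Spry1 shares 710 exon bases with Gm42922 on the opposite strand, which had at most 2.27 normalized reads.

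Spred1 and Spred2 encode proteins that recruit neurofibromin, the RAS GTPase activating protein, to the membrane. Spred1 (chr2:117121374-117182279, plus strand) had 649, 711 and 405 normalized reads in the WTFL and 340, 297 and 252 in the dKO libraries of C1, and 859, 931 and 885 against 913, 659 and 841 in C2. Spred2 (chr11:19924375-20024026, plus strand) had 439, 543 and 422 in the WTFL and 294, 400 and 313 in the dKO libraries of C1, and 666, 740 and 705 against 685, 602 and 659 in C2. Both genes separated the groups of C1 and overlapped in C2. Spred1 had a log2 fold change of -0.96 ± 0.19 (SE; adjusted p = 0.00088, limma) in C1 and of -0.16 ± 0.19 (adjusted p = 0.54, limma) in C2. Spred2 had -0.48 ± 0.13 (adjusted p = 0.0086, limma) in C1, a call that was lost in a fit of the compared groups alone (adjusted p = 0.056), and -0.12 ± 0.13 (adjusted p = 0.50, limma) in C2. The difference between the clones was called for Spred1 (0.79 ± 0.27, adjusted p = 0.035, limma) and not for Spred2 (0.36 ± 0.18, adjusted p = 0.16, limma). The call for Spred1 was kept only without C1 WTFL replicate 3, C1 dKO replicate 1 or C2 dKO replicate 2, and leaving out any other library gave an adjusted p of 0.053 to 0.091. Spred2 was called without C1 dKO replicate 2 (adjusted p = 0.048).

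Egr1 (chromosome 18, 34859823 to 34864984, plus strand) had the largest dKO effect among the 10 genes, in C2. Its C2 WTFL libraries had 187, 490 and 476 normalized reads and its C2 dKO libraries 43.9, 67.1 and 62.2. WTFL libraries of C1 had 77.6, 143 and 29.6, a 4.85-fold range within the group, and dKO libraries had 40.8, 29.4 and 64.4. The groups were separate in C2 and overlapped in C1. The log2 fold change was -2.61 ± 0.48 (SE; adjusted p = 0.00049, limma) in C2, where 15% of the WTFL level was left, and -0.69 ± 0.48 (adjusted p = 0.29, limma) in C1. Without C1 WTFL replicate 3, Egr1 was called lower in C1 as well (adjusted p = 0.026). The difference between the clones of -1.92 ± 0.68 passed narrowly (adjusted p = 0.045, limma) and failed under 7 of 8 alternatives (adjusted p 0.051 to 0.067), so that only a pseudocount of 5 kept it (0.036). It was kept without C1 WTFL replicate 2, C1 dKO replicate 2 or C2 WTFL replicate 1, and leaving out any other library gave 0.053 to 0.11.

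**Figure D2:**
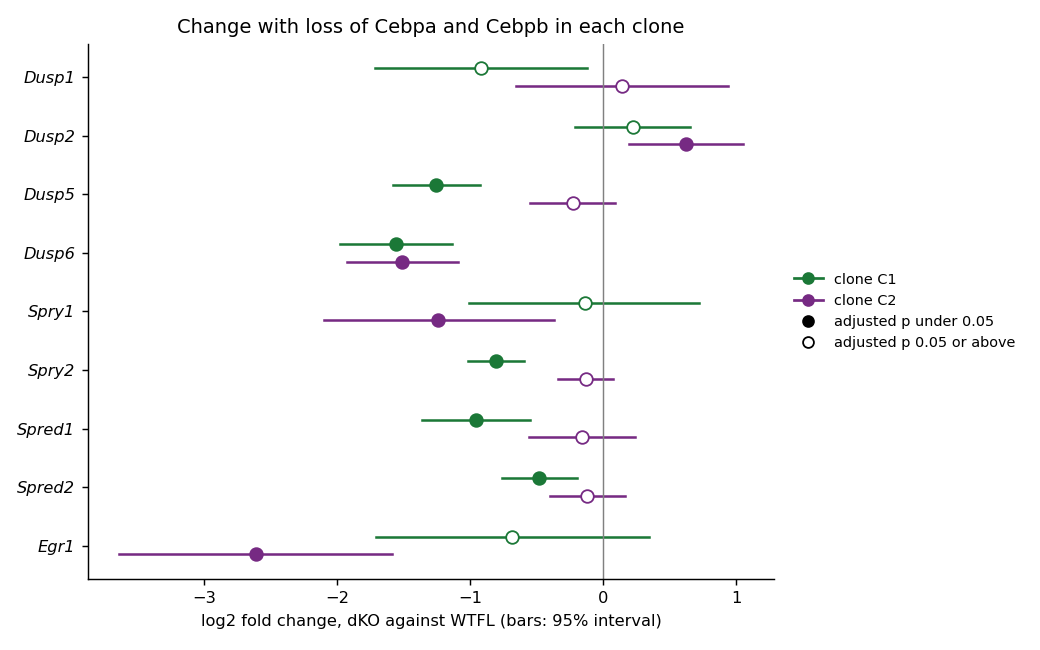
Log2 fold change of dKO against WTFL cells (horizontal axis) with its 95% interval for 9 feedback genes in clone C1 (green) and clone C2 (purple); filled points passed an adjusted p of 0.05. Dusp4 is not drawn because it was at the floor in C1 WTFL and dKO cells. The points of Dusp6 coincide at -1.56 and -1.51, those of Dusp5, Spry2 and Spred1 lie further left in C1, and that of Egr1 lies further left in C2.

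Whether C/EBPβ LAP* returned the feedback genes to the parental level could be followed in C1. Compared with dKO cells, 3 genes were lower in dKO-LAP* cells (Dusp1, Dusp5 and Spry2) and 0 were higher, against 3.03% called lower and 1.43% called higher among the genes tested. Each of the 3 thus lay further below WTFL cells than in dKO cells. Compared with WTFL cells, 5 genes were lower (Dusp1, Dusp5, Dusp6, Spry2 and Spred1) and 0 higher, against 18.3% and 14.2%. The median log2 fold change over the 9 genes without Dusp4 was -0.47 against dKO cells and -1.15 against WTFL cells, where all genes tested had 0 and -0.003. These comparisons share the dKO or WTFL libraries with the comparison of dKO and WTFL cells, and their values stand side by side here without a test of one against the other.

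Dusp1 had 20.3, 40.6 and 9.12 normalized reads in the dKO-LAP* libraries, all below its lowest dKO library. The log2 fold change was -1.66 ± 0.37 (SE; adjusted p = 0.019, limma) against dKO and -2.58 ± 0.37 (adjusted p = 5.5e-05, limma) against WTFL cells, of whose level 18.5% was left. Dusp5 had 58.9, 61.8 and 83.9 normalized reads, again below all dKO libraries, and differed by -0.85 ± 0.15 (adjusted p = 0.0041, limma) from dKO and by -2.11 ± 0.15 (adjusted p = 3.5e-08, limma) from WTFL cells on the log2 scale. Spry2 had 107, 119 and 113 normalized reads, with -0.53 ± 0.10 (adjusted p = 0.0053, limma) and -1.34 ± 0.10 (adjusted p = 4e-08, limma). The order WTFL, dKO and dKO-LAP* held for these 3 genes without overlap between neighbours. The calls against dKO cells were lost in a fit of the dKO and dKO-LAP* groups alone (adjusted p = 0.16 for Dusp1, 0.062 for Dusp5 and 0.063 for Spry2). That for Dusp1 was lost also without dKO replicate 2 (0.09), dKO replicate 3 (0.055) or dKO-LAP* replicate 3 (0.073).

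Dusp6 in dKO-LAP* cells overlapped with dKO cells, with 203, 241 and 170 normalized reads against 239, 230 and 231, which is a difference of -0.20 on the log2 scale (95% interval -0.62 to 0.22). Spred1 had 281, 395 and 294 normalized reads. It differed by 0.12 on the log2 scale (95% interval -0.28 to 0.52) from dKO cells and by -0.84 ± 0.19 (adjusted p = 0.0028, limma) from WTFL cells. Spred2 had 370, 445 and 334 normalized reads and overlapped with both other groups, with 0.19 (95% interval -0.09 to 0.47) against dKO and -0.29 (95% interval -0.57 to -0.01, adjusted p = 0.10, limma) against WTFL cells. No gene of the group moved back towards WTFL cells by an amount that passed the test. Dusp2 (112, 136 and 71.1), Spry1 (14.2, 19.4 and 7.3) and Egr1 (24.4, 26.7 and 43.8) overlapped with dKO and with WTFL cells. Egr1 had a log2 fold change of -1.15 ± 0.48 against WTFL cells (adjusted p = 0.081, limma), which passed with edgeR (adjusted p = 0.047), with DESeq2 (0.044) and without C1 WTFL replicate 3 (0.0048). Spred2 passed without dKO-LAP* replicate 2 (0.037).

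**Figure D3:**
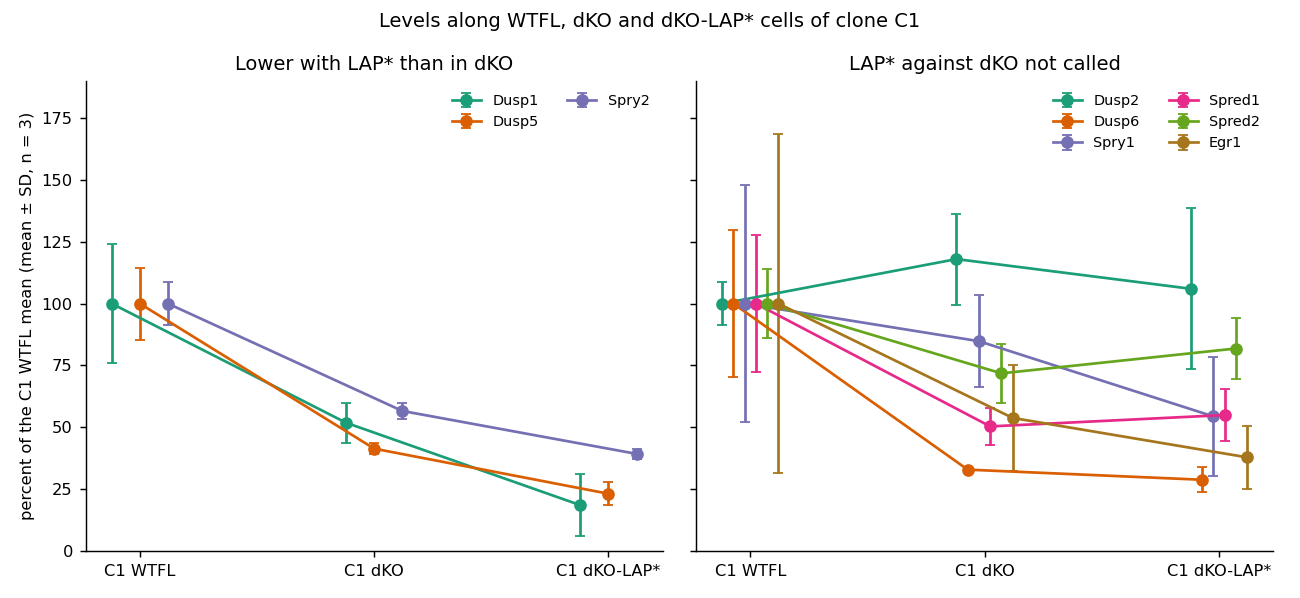
Level as a percent of the C1 WTFL mean (vertical axis, linear from 0) in WTFL, dKO and dKO-LAP* cells of clone C1. Points are means of 3 libraries and bars are SDs on the same scale. Left: the 3 genes called lower with LAP* than in dKO cells, which end at 18.5% (Dusp1), 23.1% (Dusp5) and 39.2% (Spry2). Right: 6 genes for which that comparison was not called. Dusp4 is not drawn.

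Between the parental cells of the clones, before any deletion, 8 of the 9 genes other than Dusp4 were called different. In C2 relative to C1 WTFL cells, 5 of these genes were higher (Dusp6, Spry2, Spred1, Spred2 and Egr1) and 3 were lower (Dusp1, Dusp2 and Dusp5), against 19.7% called higher and 21.3% called lower among the genes tested. Dusp6 was 3.19 times and Egr1 4.6 times as high in C2, which is 1.70 ± 0.20 on the log2 scale for the first (SE; adjusted p = 3.9e-06, limma) and 2.33 ± 0.48 for the second (adjusted p = 0.0011, limma). Spry2, Spred1 and Spred2 differed by a like factor, 1.50, 1.52 and 1.50 (log2 fold changes 0.58, 0.64 and 0.60, adjusted p = 0.00017, 0.013 and 0.0016, limma). For Dusp4, the 46 reads of the C2 and 8 reads of the C1 WTFL libraries gave a ratio of 5.35 per size factor (95% exact Clopper-Pearson interval 2.5 to 13.1, counting error only). Its test is not counted, because it passed the filter only through C2, where it is high. Among the lower genes, Dusp1 had -1.10 ± 0.37 (adjusted p = 0.028, limma), Dusp2 -0.65 ± 0.20 (adjusted p = 0.018, limma) and Dusp5 -0.45 ± 0.15 (adjusted p = 0.027, limma).

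The 3 lower calls between the parental clones hung on single libraries. All were lost without C1 WTFL replicate 2 (adjusted p = 0.09 for Dusp1, 0.057 for Dusp2 and 0.12 for Dusp5). Dusp1 was lost also without C1 WTFL replicate 3 (0.073), C2 WTFL replicate 1 (0.11) or 3 (0.05), Dusp2 without C2 WTFL replicate 2 (0.073), and Dusp5 without C2 WTFL replicate 1 (0.083) or 2 (0.054). Of the 5 higher calls, that of Spred1 was lost without C1 WTFL replicate 3 (0.07). Spry1 was not called, with 22.8, 37.9 and 14.3 against 14.9, 33.5 and 24.7 normalized reads.

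**Figure D4:**
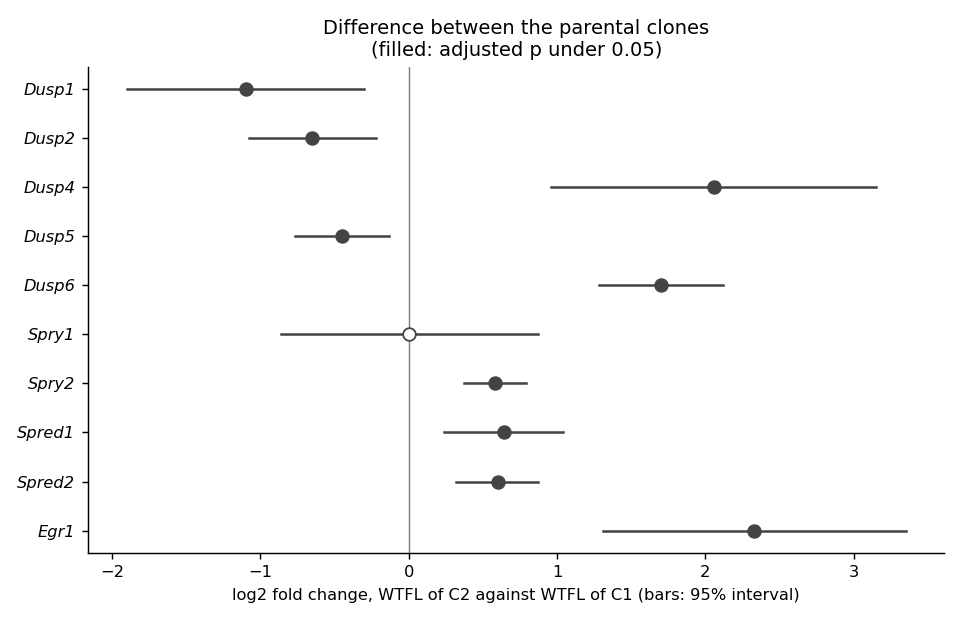
Log2 fold change of WTFL cells of clone C2 against WTFL cells of clone C1 (horizontal axis) with its 95% interval for the 10 feedback genes; filled points passed an adjusted p of 0.05. The 6 points to the right of 0 run from 0.58 (Spry2) to 2.33 (Egr1), and the 3 filled points to the left from -1.10 (Dusp1) to -0.45 (Dusp5). The value of Dusp4 rests on 8 reads in C1 and on a filter that it passed only through C2.

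Levels of different genes can be compared per kilobase of exon (union of GENCODE vM21 exons). On this scale, Dusp6 was the most abundant of the 10 mRNAs in WTFL cells of both clones, with 226 ± 66.9 normalized reads per kilobase in C1 and 722 ± 110 in C2 (SD, n = 3). In C1 it was followed by Spry2 (138 ± 11.8) and Dusp5 (119 ± 17.4), and in C2 by Spry2 (206 ± 13.7) and Spred2 (152 ± 8.02). Spry1 (8.59 ± 4.12 in C1 and 8.4 ± 3.2 in C2) and Dusp4 (1.08 ± 0.405 and 5.53 ± 0.902) were the least abundant. Leaving out Dusp4, whose lowest mean (1.35 normalized reads in C1 dKO-LAP* cells) rests on 4 reads, the ratio of the highest to the lowest of the 5 group means was 12.2 for Egr1, 11.1 for Dusp6, 5.41 for Dusp1, 4.33 for Dusp5 and 3.81 for Spry2, and 1.84 for Dusp2.

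Neighbours in the order of the groups were often not separate. For Dusp6 the order was C2 WTFL, C2 dKO, C1 WTFL, C1 dKO and C1 dKO-LAP*, in which C2 dKO and C1 WTFL overlapped and so did C1 dKO and dKO-LAP*. For Spry2 it was C2 WTFL, C2 dKO, C1 WTFL, C1 dKO and C1 dKO-LAP*, with overlap between the first pair only. For Dusp5 it was C1 WTFL, C2 WTFL, C2 dKO, C1 dKO and C1 dKO-LAP*, in which the C2 groups overlapped. Dusp1 stood highest in C1 WTFL (126 ± 30.3) and lowest in C1 dKO-LAP* cells (23.3 ± 15.9), and its other 3 groups (58.5 to 65.3) overlapped. Egr1 stood apart in C2 WTFL cells, and its other 4 groups each overlapped with the next. For Spry1, every neighbouring pair overlapped.

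Within a group, many of the 10 genes were highest or lowest in the same library. C1 WTFL replicate 2 was the highest of its group for 8 of the 10 genes and replicate 3 the lowest for 7. C2 WTFL replicate 1 was the lowest of its group for 9 genes and replicate 2 the highest for 7. In the other groups, replicate 2 of the C1 dKO-LAP* cells was the highest for 7 genes, and so were replicate 2 of C1 dKO and replicate 1 of C2 dKO cells for 6 each. Among 10 other immediate early genes (Fos, Fosb, Jun, Junb, Ier2, Ier3, Atf3, Btg2, Zfp36 and Nr4a1), which also respond to the handling of cells, C2 WTFL replicate 1 was the lowest for 7 and C1 WTFL replicate 2 the highest for 5, and C1 dKO-LAP* replicate 2 was the highest for 6. The part of the time of extraction in this was not tested. In C1, 5 genes were lower in dKO than in WTFL cells without WTFL replicate 2 and 6 without WTFL replicate 3, and in C2, 3 were lower without WTFL replicate 1, 2 without replicate 2 and 2 without replicate 3. Dusp2 was not called higher in C2 without WTFL replicate 2.

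The other MAP kinase phosphatases that passed the test were lower in dKO cells, as Dusp6 was. Of 5 genes, 4 were tested, and 2 were lower in dKO cells in C1 (Dusp9 and Dusp16) and 2 in C2 (Dusp9 and Dusp10), with 0 higher (median log2 fold change -1.32 and -1.13). For this and the following lists, the shares over all genes tested were 19.9% lower and 17.1% higher in C1 and 20.1% and 17.4% in C2. Dusp9, like Dusp6 an ERK phosphatase of the cytoplasm, had 44.1, 68.5 and 71.3 normalized reads in WTFL and 4.53, 6.29 and 7.06 in dKO libraries of C1, and 112, 146 and 150 against 40.8, 40.8 and 34.3 in C2. The groups were separate in both clones, and the log2 fold change was -3.15 (adjusted p = 5e-08, limma) in C1 and -1.78 (adjusted p = 2.6e-05, limma) in C2. The loss was larger in C1, and the difference of 1.37 (log2) passed (adjusted p = 0.0058, limma). Dusp9 was higher in dKO-LAP* than in dKO cells (15.2, 16.6 and 11.9 normalized reads; 1.17 on the log2 scale with adjusted p = 0.01, limma) while staying below WTFL cells (-1.98, adjusted p = 7.9e-06, limma). The dKO side of this comparison rests on only 4, 6 and 8 reads. Dusp16, a phosphatase of JNK and p38, changed by -1.96 (log2; adjusted p = 0.0032, limma) in C1, with -0.92 (adjusted p = 0.13, limma) in C2. Dusp10, which acts on the same kinases, had -0.67 (adjusted p = 0.099, limma) and -1.33 (adjusted p = 0.0028, limma). Dusp7 passed in neither clone (-0.29 and -0.21), and Dusp8 was not tested.

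Of the 9 atypical Dusp genes, which lack the MAP kinase binding domain, Dusp14 and Dusp18 are not counted in C1. Of the others, 2 were lower (Dusp3 and Dusp11) and 1 higher (Dusp28) in dKO cells of C1, and 2 lower (Dusp3 and Dusp19) and 2 higher (Dusp12 and Dusp22) in C2, which in C2 is near the share over all genes tested (20.1% and 17.4%). Dusp18 held 2, 7 and 2 reads in C1 WTFL and 0 in C1 dKO libraries and was tested only because of its level in C2 (130 ± 26.8 normalized reads in WTFL cells), so its values in C1 are near the floor. Dusp3 was lower in both, from 295 ± 74.9 to 113 ± 14.4 normalized reads in C1 and from 436 ± 59.2 to 260 ± 31.1 in C2 (SD, n = 3; log2 fold changes -1.35 and -0.74, adjusted p = 1.5e-05 and 0.0031, limma). Dusp23 passed in neither clone. Dusp14 did not pass in C2, and it was at the floor in C1 and was tested only because of its level in C2. Of the other Sprouty and Spred genes, Spred3 was tested and passed in neither clone, Spry4 had at most 10.1 normalized reads, and Spry3 is named only.

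Nab2, a corepressor that binds Egr1 and is itself an Egr1 target, was lower in dKO cells of both clones. Its WTFL libraries had 143, 93.8 and 83.5 normalized reads and its dKO libraries 19.2, 16.8 and 29.1 in C1, against 120, 243 and 198 and 28.2, 22.4 and 42.9 in C2. No libraries overlapped, and the log2 fold change was -2.25 (adjusted p = 2.7e-05, limma) in C1 and -2.54 (adjusted p = 9.1e-06, limma) in C2. The difference between the clones was -0.29 (adjusted p = 0.67, limma). Nab1 was lower in C1 alone by call (-0.85, adjusted p = 2.1e-05, limma), and the difference between the clones was called (0.86, adjusted p = 0.00072, limma). Egr2 and Egr3 passed in neither clone, and Egr4 was not tested.

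Among 8 further genes that are commonly read as ERK output, 7 were tested. In C1, 4 were lower (Phlda1, Ccnd1, Etv4 and Etv5) and 0 higher, and in C2, 2 were lower (Phlda1 and Etv4) and 1 was higher (Myc). Phlda1 had 42.8, 88.4 and 38.7 normalized reads in WTFL and 14.7, 14.7 and 16.8 in dKO libraries of C1, and 27.9, 70.2 and 55 against 14.7, 8.75 and 17.2 in C2. Its groups were separate in both clones, and the log2 differences were -1.72 and -1.79 (adjusted p = 0.0017 and 0.0012, limma). Etv4, an ETS factor, had -0.81 (adjusted p = 0.042, limma) and -1.35 (adjusted p = 0.0019, limma), and stood at 273 ± 14 normalized reads in C2 WTFL against 19.9 ± 8.53 in C1 WTFL cells (SD, n = 3). Etv5, a related factor, had -1.29 (adjusted p = 0.0024, limma) in C1 and 0.04 (adjusted p = 0.93, limma) in C2, and this difference was called (1.33, adjusted p = 0.023, limma). Ccnd1, the gene of cyclin D1, had -1.82 (adjusted p = 0.006, limma) and 0.14 (adjusted p = 0.85, limma), with a called difference of 1.96 (adjusted p = 0.035, limma). Fosl1 passed in neither clone, and Epha4 was at 0. Epha2 was at the floor in C1 WTFL and dKO cells, so its values there are not read. In C2 it did not pass, with 25.9, 21 and 36.6 normalized reads in WTFL and 76.4, 59.3 and 60.1 in dKO libraries, which did not overlap. In dKO-LAP* against dKO cells, 0 of the 7 genes tested were lower, against 3.03% of all genes tested. Of their log2 fold changes, 2 were negative, and the median was 0.12.

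Of the 10 other immediate early genes, 3 were lower in dKO cells of C1 (Atf3, Btg2 and Zfp36) and 0 higher. In C2, 2 were lower (Jun and Junb) and 2 higher (Fos and Fosb), near the 20.1% and 17.4% of all genes tested. Fos had 58.8, 59.8 and 96.2 normalized reads in WTFL and 87.9, 219 and 96.5 in dKO libraries of C2, which overlapped (log2 fold change 0.81, adjusted p = 0.047, limma), whereas Egr1 was lower in the same dKO libraries. In dKO-LAP* against dKO cells, 4 of the 10 were lower (Fos, Fosb, Zfp36 and Nr4a1) and 0 higher, against 3.03% and 1.43% of all genes tested, and all 10 log2 fold changes were negative (median -0.57). Fos had -1.18 (adjusted p = 0.04, limma) and Zfp36, which encodes an mRNA decay factor, had -0.46 (adjusted p = 0.041, limma). Against WTFL cells, 8 of the 10 were lower in dKO-LAP* cells (18.3% of all genes tested), all but Junb (-0.17, adjusted p = 0.50, limma) and Ier2 (-0.11, adjusted p = 0.46, limma).

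Of 17 genes from the adaptors to ERK, dKO cells of C1 had 5 lower and 1 higher, and those of C2 had 5 lower and 3 higher, with a median log2 fold change of -0.09 in each, against -0.015 and -0.027 over all genes tested. Among the most abundant, Ptpn11, the gene of the phosphatase SHP2, had -0.44 (adjusted p = 0.00019, limma) in C1 and -0.13 (adjusted p = 0.17, limma) in C2. Grb2 had 0.15 (adjusted p = 0.072, limma) and 0.36 (adjusted p = 0.00026, limma). Nras moved in opposite directions, with -0.30 (adjusted p = 0.031, limma) in C1 and 0.69 (adjusted p = 5.7e-05, limma) in C2, and the difference was called (0.99, adjusted p = 8.9e-05, limma).

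Of 9 ERK effectors, 5 were higher and 1 lower in dKO cells of C1, and 4 higher and 0 lower in C2. Rps6ka1 and Rps6ka2, which encode RSK kinases, were higher in both clones (0.40 and 0.40 for Rps6ka1, adjusted p = 0.00036 and 0.00041; 0.59 and 0.94 for Rps6ka2, adjusted p = 5.1e-05 and 4.5e-07, limma). In C1, Elk3 (0.42, adjusted p = 0.013, limma) and Rps6ka3 (0.44, adjusted p = 0.0059, limma) were higher too, and in C2, Elk4 (1.02, adjusted p = 2.9e-06, limma) and Mknk2 (0.27, adjusted p = 0.012, limma). Mknk1 passed in neither clone. Srf, the gene of serum response factor, had 0.34 (adjusted p = 0.018, limma) in C1 and -0.08 (adjusted p = 0.58, limma) in C2. Elk1, an ETS partner of serum response factor, had -0.31 (adjusted p = 0.038, limma) and -0.07 (adjusted p = 0.67, limma).

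Of 12 RAS GTPase activating proteins and DOK adaptors, Rasal1, Rasal2 and Dab2ip are not counted. They passed the filter only through groups where they are high. In C1, 1 gene of the list was lower, and 5 were higher if Dab2ip is included, which held 0, 1 and 1 reads in C1 WTFL libraries. Of the genes counted, 0 were called in either direction in C2 (limma), where 1, Dok2, had an unadjusted p under 0.05 (-0.37, adjusted p = 0.057). The most abundant gene of the list, Rasa3, had 0.00 (adjusted p = 0.97, limma) in C1 and 0.01 (adjusted p = 0.96, limma) in C2. Dok3, the gene of a DOK adaptor, had 0.63 (adjusted p = 0.0002, limma) and 0.10 (adjusted p = 0.47, limma). Rasa2 (-0.21 and -0.12) and Rasa1 (-0.05 and 0.19) passed in neither clone. Of 11 JNK and p38 genes, 8 were tested, with 2 lower and 1 higher in C1 and 2 lower and 2 higher in C2, near the shares over all genes tested (19.9% and 17.1% in C1, 20.1% and 17.4% in C2). Mapk14, the gene of p38 alpha, had -0.08 (adjusted p = 0.31, limma) and -0.02 (adjusted p = 0.86, limma). Mapk9, the gene of JNK2, was lower in both clones (-0.25 and -0.43, adjusted p = 0.015 and 0.00024, limma), and Map2k4, which encodes a kinase that activates JNK, in C2 by call (-0.06 and -0.37, adjusted p = 0.45 and 9.4e-05, limma). Map2k3 (0.22 in each) passed in neither clone.

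Of 8 myeloid growth factor receptor genes, Flt3 is not counted, because it had at most 1 read in a WTFL library and passed the filter only through groups where it is high. Of the others, 2 were higher (Csf2rb2 and Kit) and 2 lower (Csf2ra and Csf1r) in dKO cells of C1, and 1 was higher (Kit) and 2 lower (Il3ra and Csf3r) in C2. Il3ra, the IL-3 binding chain, stood at a log2 difference of -0.41 (adjusted p = 0.06, limma) in C1 and at -0.62 (adjusted p = 0.0068, limma) in C2. Csf2rb, the shared signalling chain, had 0.23 (adjusted p = 0.082, limma) and -0.23 (adjusted p = 0.075, limma). Kit, the receptor of stem cell factor, was higher in both (1.20 and 2.16, adjusted p = 8e-07 and 1.1e-09, limma). Csf1r, the receptor of macrophage colony-stimulating factor, fell from 3237 to 921 normalized reads in C1 (-1.83, adjusted p = 9.4e-06, limma) and was at 45.9 and 60.8 in C2 (0.43, adjusted p = 0.15, limma).

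**Figure D5:**
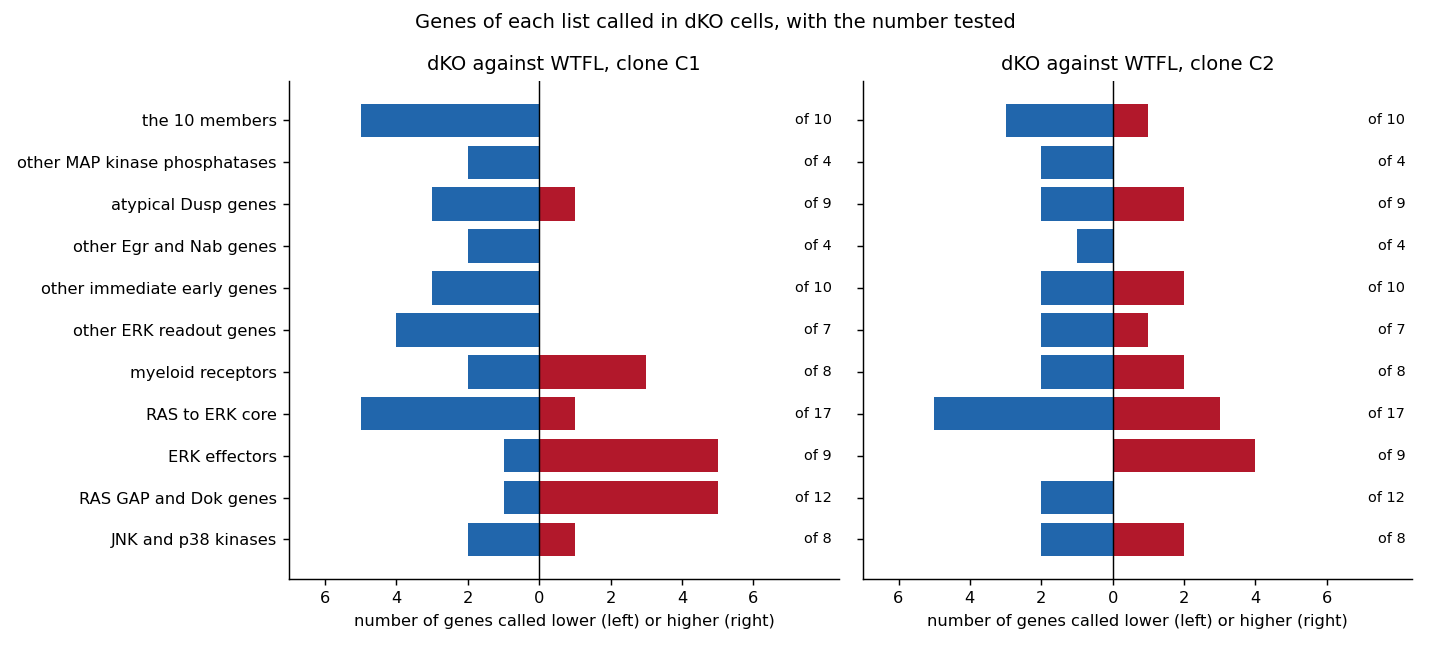
Number of genes called lower (blue, left of 0) and higher (red, right of 0) in dKO against WTFL cells of clone C1 (left panel) and clone C2 (right panel) for the 10 feedback genes and for lists of other pathway genes, with the number of genes tested at the right edge. The bars include Dusp18, Rasal1, Rasal2, Dab2ip and Flt3, which the text does not count. In C1, 5 of the 10 feedback genes are called lower and 0 higher, and 5 of 9 ERK effectors are called higher; among all genes tested, 19.9% were lower and 17.1% higher in C1.

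The gene most like a member was sought over the 15 libraries as the gene outside the group with the smallest root mean square difference of log2(normalized reads + 1), each centred on its own mean. Dusp6 was nearest to Abcd2 (0.25, against a median of 1.33 over all genes tested), whose mean was 3281 and 1251 normalized reads in WTFL and dKO cells of C1 and 9660 and 4309 in C2. Spry2 was nearest to Zmynd11 (0.17), Spred1 to Fndc3a (0.16) and Spred2 to Ezr (0.11). Dusp2 was nearest to 2410002F23Rik (0.17), Spry1 to Slc41a3 (0.38), Dusp4 to Mzf1 (0.48), Egr1 to Ecm1 (0.54) and Dusp1 to Stag3 (0.58). Within the group, Spry2 and Spred1 were the nearest pair (0.28), and 11 genes outside it were nearer to Spry2 and 22 nearer to Spred1. The nearest member to Egr1 was Dusp6 (0.72), and 15 other genes were nearer. Dusp2 and Spry1 lay far from the group, with 9536 genes nearer to Dusp2 and 7048 nearer to Spry1 than their nearest member. Spred2 lay 0.32 from Spred1, its nearest member, and 650 genes were nearer.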

How the data were processed

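RNA-seq of 15 libraries was analysed from 1 table. Per the submitters' processing notes, reads were processed with STAR 2.5.3a, HTSeq 0.10.0 and DESeq2 1.26.0 on mm10; the annotation and strand setting of the counting are not given in the sources used here. The deposited values are a normalized signal, reads divided by the authors' DESeq2 size factor of each library (0.747 to 1.13). Whole reads were recovered for at least 99.99% of values (tolerance 0.1). The 5 rows that name no gene (22.4% to 26.2% of reads) and 3 columns named for dKO-LAP* cells of C2, which matched no sample, were not used. Genes that reached 10 normalized reads in 3 or more libraries were tested with limma 3.58.1 (R 4.3.3) on log2(normalized reads + 1), fitting the 5 group means to all 15 libraries together, with Benjamini-Hochberg adjustment over all genes tested; fold changes are on that scale and understate changes of low genes. Alternatives were quantile normalization, pseudocounts of 0.1 and 5, no filter, a block for the replicate number, a fit of the compared groups alone, edgeR 4.0.16 and DESeq2 1.42.0 on recovered reads, and leaving out each library. The fits were tested on simulated data. Python 3.11.15, pandas 2.3.3, numpy 2.4.6, scipy 1.17.1 and matplotlib 3.10.9 were used. Groups came from the sample labels. All members, and the pathway and marker lists, were chosen with earlier results of these data known. Named genes are the 10 members, the genes of the shorter lists, the 4 most abundant genes of the longer lists and the gene nearest to each member. A list of at most 10 genes counts as short. A few items that this rule or the marker lists name are not reported here.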

Additional observations from a re-analysis of the deposited data

Results flagged for a closer look

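The effect of the deletion differed between the clones for 4 of the 10 feedback genes, by the test of the difference itself (log2 effect in C2 minus that in C1, limma, adjusted over all genes tested). The difference was 1.03 for Dusp5 (adjusted p = 0.0019), 0.68 for Spry2 (adjusted p = 0.0015) and 0.79 for Spred1 (adjusted p = 0.035), and -1.92 for Egr1 (adjusted p = 0.045). The calls for Dusp5 and Spry2 held under all 8 alternatives and without any 1 library. That for Egr1 failed under 7 of 8 alternatives (adjusted p 0.051 to 0.067), and those for Egr1 and Spred1 each failed in 9 of 12 fits with 1 library left out (up to 0.11 and 0.091). All 4 rest on 1 line per clone and genotype, so that clone and subclone cannot be told apart.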

How the results depend on the processing

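Each result was recomputed under 8 alternatives and without each library. For the 10 genes in 6 comparisons under the 8 alternatives, 455 values kept their direction and side of the threshold, 13 lost and 9 gained the call, and 3 changed direction; without single libraries these numbers were 362, 38, 6 and 14. The 3 concern Spry1 between the parental clones, with a log2 fold change of 0.00 as reported and of -0.04 with quantile normalization, -0.05 with edgeR and -0.04 with DESeq2. Among all genes tested, the number higher in dKO-LAP* than in dKO cells fell from 181 to 86 when only the groups compared were fitted; without single libraries it was 73 to 171, and that of lower genes 187 to 308 (384 as reported). Both counts fell by over 1.5 times without C1 dKO replicate 1 or 2 or dKO-LAP* replicate 2 or 3, and that of lower genes also without C1 dKO replicate 3 (212). Uncalled values that changed sign without single libraries ranged from -0.47 to 0.20 (Spry1) in dKO against WTFL cells of C1, -0.08 to 0.30 (Dusp1) in C2, -0.18 to 0.23 (Dusp6) for the difference between clones, -0.39 to 0.07 (Dusp2) and -0.03 to 0.22 (Spred1) in dKO-LAP* against dKO cells, -0.17 to 0.29 (Dusp2) in dKO-LAP* against WTFL cells and -0.33 to 0.35 (Spry1) between the parental clones. The cause was not tested. Same-numbered libraries shared only a number: of 30 pairs, 5 deviated together with r over 0.1 (range -0.319 to 0.297, median 0.02) and 11 correlated best with their own number. With the replicate block, 2108 genes were higher and 2449 lower in dKO cells of C1 and 2150 and 2469 in C2; Dusp1 was then called in C1 (adjusted p = 0.045) and the Egr1 difference was not (0.051). On the recovered reads, edgeR called 2219 genes higher and 2460 lower in dKO cells of C1 and 2278 and 2470 in C2. Dusp4 and Spry1 are limited by low read counts.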
